A study of Homo sapiens with 12 samples.

Results

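The genes described here are 5 receptor-type protein tyrosine phosphatases (PTPRF, PTPRS, PTPRK, PTPRM and PTPRA) and 3 liprins (PPFIA1, PPFIBP1 and PPFIBP2), 8 of the 12978 genes that could be named in the exon tables of a comparison of 2 human prostate cancer lines. Their exons were found by structure: an exon event was assigned to a gene when its chromosome and strand, its exon's length and the lengths of the introns on either side were those of an annotated exon of that gene and no other in GENCODE. This gave 12 of 2023 events in the RASL-seq table, from 5 of the 8 genes, and 147 of 114816 events in the RNA-seq table, from all 8. The RASL-seq events are all on the plus strand, so PTPRS and PTPRK, which lie on the minus strand, were measured by RNA-seq alone, as was PPFIBP2.

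GS689.Li, written GS689 below, and PC3E are lines derived from the prostate cancer line PC3, GS689 with mesenchymal and PC3E with epithelial character. Both are labelled wild type and were kept in the same medium with G418, and the labels give no further treatment; cells were harvested after a night in the dish. RASL-seq joins pairs of probes across a splice junction and counts the products, and RNA-seq reads junctions from the whole transcriptome; each assay had 3 libraries per line. The labels do not say that the libraries of a line came from separate cultures, so a p-value here rests on the spread among 3 libraries that may be technical repeats, and each line stands for 1 derivative only. The header of the RNA-seq table names no line for its 2 sets of libraries. Differences between GS689 and PC3E therefore come from RASL-seq, and RNA-seq gives the level of each exon over all 6 libraries.

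Receptor-type protein tyrosine phosphatases span the plasma membrane, with adhesion domains outside and phosphatase domains inside, and remove phosphate from tyrosines at cell contacts. PTPRF (also called LAR) and PTPRS belong to the LAR group, which binds proteoglycans and synaptic adhesion proteins through immunoglobulin and fibronectin type III repeats. PTPRK and PTPRM bind copies of themselves on the neighbouring cell and act on cadherin junctions, while PTPRA, with a short outer part, activates SRC family kinases. Liprins are scaffolds of the cell cortex: liprin alpha 1 (PPFIA1) binds the inner phosphatase domains of the LAR group, and the beta liprins (PPFIBP1 and PPFIBP2) bind alpha liprins.

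The RASL-seq libraries held 615758 to 954120 counts in GS689 and 754338 to 911476 in PC3E. PC3E replicate 2 stood apart from its line: comparing inclusion counts event by event, its chi-square divided by the degrees of freedom was 5.21 against replicate 1 and 3.76 against replicate 3, while replicates 1 and 3 gave 2.01 and the GS689 pairs 1.66 to 2.07. Of 14 epithelial markers, 4 had RASL-seq events, and all 4 totals were lower in GS689 at an adjusted p under 0.05 (limma-voom). Over all 1317 tested totals, 13.4% were lower and 16.4% higher by this test. Of 8 mesenchymal markers, 2 had events, and vimentin, the 1 that could be tested, was higher. The other, ZEB1, had too few counts for the test, with 44 in GS689 and 1 in PC3E. Markers of prostate luminal cells, hepatocytes and blood cells had 0 events.

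The sequences below show the exons that the results turn on, from the GENCODE 29 transcripts, 5′ to 3′ on the strand of the gene, with the exon in capitals and 15 bases of each neighbouring exon in lower case. Each of these exons is coding in an annotated transcript and has a length that is a multiple of 3. The positions on hg19 stand with the values.
PTPRF 27 nt exon: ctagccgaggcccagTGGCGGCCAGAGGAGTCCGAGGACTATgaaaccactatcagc
PTPRF 33 nt exon: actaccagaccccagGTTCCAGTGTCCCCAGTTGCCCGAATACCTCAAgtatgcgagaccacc
PTPRS 48 nt exon: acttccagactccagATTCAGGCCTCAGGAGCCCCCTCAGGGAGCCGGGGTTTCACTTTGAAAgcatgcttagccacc
PTPRS 12 nt exon: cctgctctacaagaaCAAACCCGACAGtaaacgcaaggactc
PTPRA 27 nt exon: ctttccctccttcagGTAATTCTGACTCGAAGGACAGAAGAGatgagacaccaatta
PPFIA1 30 nt exon: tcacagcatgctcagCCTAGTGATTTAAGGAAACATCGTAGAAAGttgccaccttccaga
PPFIBP1 30 nt exon: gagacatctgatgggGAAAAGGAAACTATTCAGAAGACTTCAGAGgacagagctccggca
PPFIBP1 33 nt exon, the first: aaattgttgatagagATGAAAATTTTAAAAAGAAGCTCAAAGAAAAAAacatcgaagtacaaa
PPFIBP1 33 nt exon, the second: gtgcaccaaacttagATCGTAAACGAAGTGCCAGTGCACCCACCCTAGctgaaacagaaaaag

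The PTPRF 33 nt and PTPRS 48 nt exons sit in like surroundings. Of the 15 bases before them 13 were identical, and of the 15 bases after them 10.

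For the 579 nt exon of PTPRF, which is too long to show in full, the junctions that RASL-seq compares are given, with the bases of the preceding exon in lower case and those of the joined exon in capitals.
PTPRF 579 nt exon, inclusion junction: ctacaacaggtgcagTCCCAGGCCGGCCCA
PTPRF 579 nt exon, skipping junction: ctacaacaggtgcagTGTTTGCCAAGAACT

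The comparison of GS689 with PC3E in RASL-seq asked which exons of these genes are spliced differently in a mesenchymal and an epithelial derivative of one cancer. PTPRF, the LAR phosphatase, lost inclusion of 2 exons of its outer part in GS689: a 27 nt exon fell to 7.70% ± 4.18, against 37.9% ± 6.49 in PC3E, and a 579 nt exon fell to 71.1% ± 4.39, against 99.2% ± 0.732 in PC3E (SD, n = 3 per line). RNA-seq gave the 579 nt exon a higher level than RASL-seq gave in GS689, with 91.9% in its lowest library. None of the 3 other tested exons, in PTPRM and PPFIBP1, was called. Of 12 events, 5 had enough counts of both forms for the test. A called event has an adjusted p under 0.05 in a quasi-binomial model of its counts, with limma-moderated spread, and lines that differ by 5 percentage points or more. Of 1124 tested events in all, 64 (5.69%) were called, 40 of them (3.56%) lower in GS689.

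**Figure D1:**
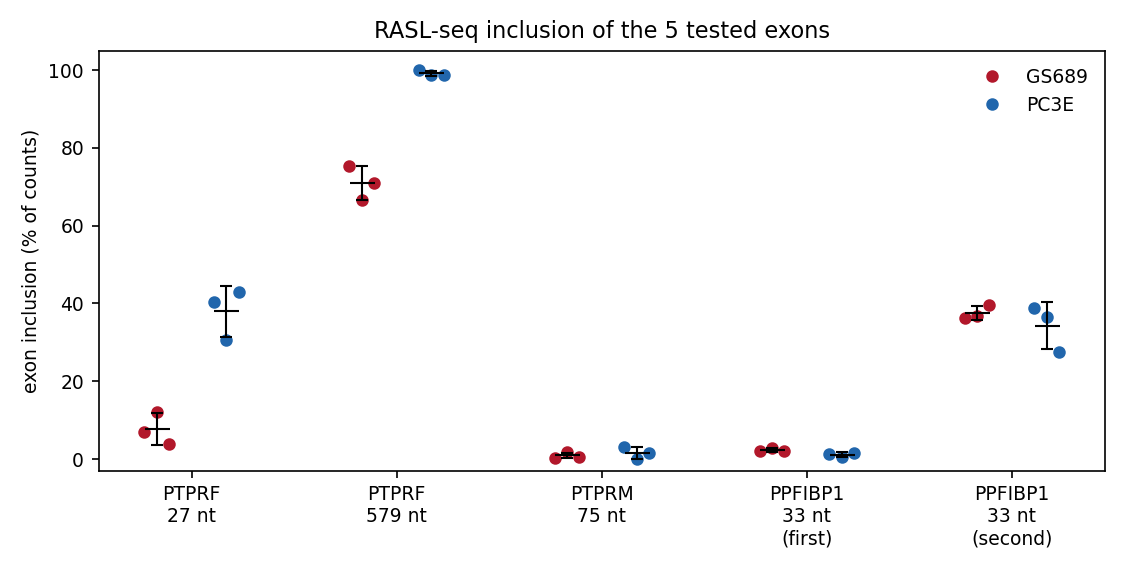
RASL-seq inclusion, as the percentage of counts that include the exon, of the 5 tested exons in each library of GS689 and PC3E, with the mean and SD of 3 libraries per line. The PTPRF 27 nt exon lies between 3.92% and 12.2% in GS689 and between 30.6% and 42.9% in PC3E. For the PTPRM and PPFIBP1 exons the means of the lines differ by at most 3.22 points.

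The 27 nt exon of PTPRF (chromosome 1, 44067742 to 44067768 on hg19, plus strand) starts at codon 772 of 1907 in the annotated transcript, among the fibronectin type III repeats. Its inclusion was 6.98%, 12.2% and 3.92% in GS689 replicates 1 to 3, and 40.4%, 30.6% and 42.9% in PC3E replicates 1 to 3. All GS689 libraries lay below all PC3E libraries; the lines did not overlap, in either direction, in 23.6% of all tested events. Behind these values stood 10 inclusion and 125 skipping counts over the GS689 libraries, and 123 and 194 over the PC3E libraries. The difference was -30.3 percentage points (adjusted p = 0.00255, quasi-binomial model moderated with limma), rank 9 by size among the 597 tested events with lower mean inclusion in GS689. Without PC3E replicate 2 it was -33.9 points.

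The 579 nt exon (chromosome 1, 44069282 to 44069860 on hg19) starts at codon 820 of the same transcript and encodes further fibronectin type III repeats; it is also coding throughout and a multiple of 3. Inclusion was 75.4%, 66.7% and 71.1% in GS689 replicates 1 to 3, and 100%, 98.7% and 98.8% in PC3E replicates 1 to 3. In the RASL-seq counts, skipping of this exon was common in GS689, with 33 skipping counts beside 86 inclusion counts, and rare in PC3E, with 2 beside 219. In RNA-seq, where the lines are not named, the lowest library was at 91.9% inclusion, on 10342 counts over all libraries. So neither line skipped the exon as often there as GS689 did in RASL-seq. The gap between the assays was not tested. The difference was -28.1 percentage points (adjusted p = 0.000651, quasi-binomial model moderated with limma; rank 13 by size among the falls), and -28.4 without PC3E replicate 2.

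The remaining PTPRF event, an exon of 33 nt (chromosome 1, 44078439 to 44078471), was skipped almost always. It had 0 inclusion and 161 skipping counts in GS689, which allows an inclusion of up to 1.86%, and 2 and 376 in PC3E. Such limits, set by 3 counts, cover counting error only.

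The counts of the separate splice forms, scaled to counts per 1000000 (CPM), are given as a description with no test. The form with the 27 nt exon stood at 4.12 ± 1.67 CPM in GS689 and 48.3 ± 15.1 in PC3E, and the form without it at 54.7 ± 21.4 in GS689 and 77.2 ± 7.79 in PC3E. Most of the gap in this event was in the inclusion product, and the skipping product overlapped between the lines. The form with the 579 nt exon stood at 35.8 ± 14.2 CPM in GS689 and 87.5 ± 12.4 in PC3E, while the form without it was higher in GS689, at 14.0 ± 4.09 against 0.807 ± 0.704 in PC3E (SD, n = 3 per line). The junction that skips the 33 nt exon, used by nearly all counted transcripts of both lines, stood at 67.8 ± 10.4 CPM in GS689 and 149 ± 10.2 in PC3E.

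**Figure D2:**
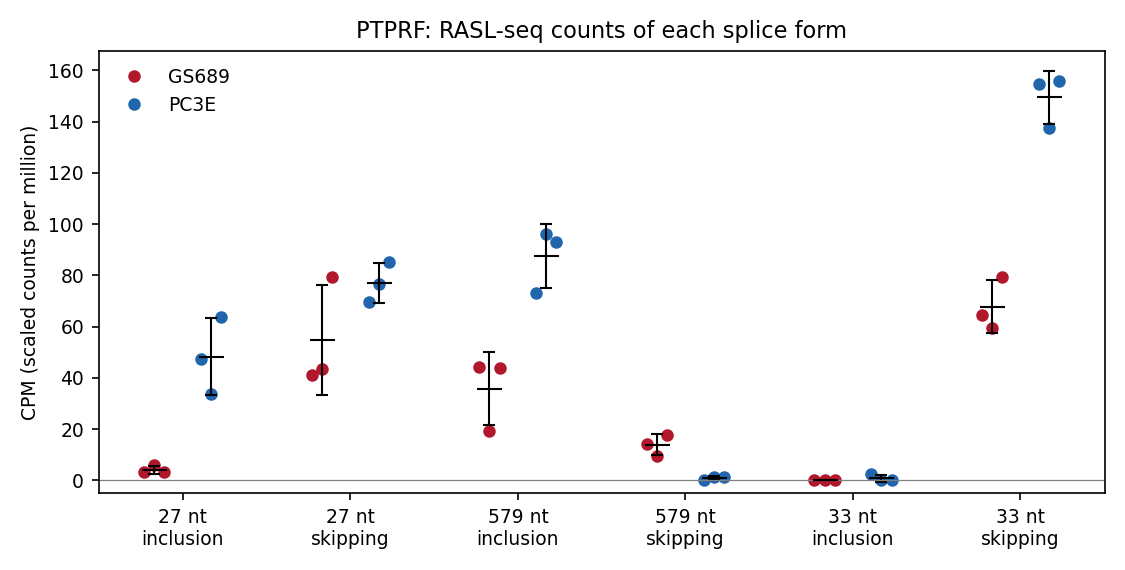
RASL-seq CPM of the inclusion and skipping form of 3 PTPRF exons in each library of GS689 and PC3E, with the mean and SD of 3 libraries per line. The skipping form of the 579 nt exon is the 1 form with a higher mean in GS689, at 14.0 against 0.807 CPM in PC3E.

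By the mean absolute difference of inclusion over the 6 libraries, the events of other genes most like the PTPRF 579 nt exon, out of 1122 compared, were exons of UAP1, INF2 and TSC2. The 51 nt exon of UAP1, an enzyme of sugar nucleotide synthesis, was 3.52 points away, with mean inclusion of 76.0% in GS689 and 97.1% in PC3E. The 57 nt exon of INF2, a formin, was 5.33 points away (79.9% in GS689 and 97.4% in PC3E), and the 129 nt exon of TSC2, a brake on mTOR signalling, 5.59 points (69.2% in GS689 and 93.2% in PC3E).

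PTPRM has 1 RASL-seq event, a 75 nt exon (chromosome 18, 8122240 to 8122314) that is coding in an annotated transcript. Its inclusion was 0.352%, 1.75% and 0.637% in GS689 and 3.03%, 0% and 1.67% in PC3E. The libraries overlapped, with means of 0.912% ± 0.738 in GS689 and 1.57% ± 1.52 in PC3E (SD, n = 3; adjusted p = 0.841 in the limma-moderated model).

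The first 33 nt coding exon of PPFIBP1, liprin beta 1 (chromosome 12, 27811749 to 27811781), was rarely included. It stood at 2.06%, 2.81% and 2.14% in GS689, and at 1.18%, 0.419% and 1.65% in PC3E. The GS689 libraries were all above the PC3E libraries, on 213 inclusion counts in GS689 and 79 in PC3E, but the difference of 1.25 points was not called (adjusted p = 0.114 in the limma-moderated model, and 0.0597 to 0.579 over its alternatives). The second (chromosome 12, 27829997 to 27830029) was at an intermediate level in both lines, with 36.2%, 36.8% and 39.5% in GS689, and 38.8%, 36.6% and 27.4% in PC3E. These libraries overlapped (37.5% ± 1.75 in GS689 and 34.3% ± 6.03 in PC3E, SD, n = 3; adjusted p = 0.787 in the limma-moderated model).

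The other 6 events of these genes showed almost 1 form in both lines and were not tested. A 93 nt coding exon of PPFIBP1 had 0 inclusion counts of 2275 in GS689 (up to 0.132%) and 0 of 1600 in PC3E (up to 0.188%). In PPFIA1, a 75 nt exon had 0 of 4171 in GS689 (up to 0.0719%) and 0 of 4418 in PC3E (up to 0.0679%), and a 71 nt exon was included in all 1396 counts in GS689 and all 1540 in PC3E. In PTPRA, a 90 nt noncoding exon had 1 inclusion count beside 343 skipping counts in GS689 and 0 of 197 in PC3E (up to 1.52%). The PTPRA 27 nt exon had 0 of 43 in GS689 (up to 6.98%) and 0 of 29 in PC3E (up to 10.3%), and the PPFIA1 30 nt exon had 5 skipping counts in GS689 and 1 in PC3E, too few to give a level.

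**Figure D3:**
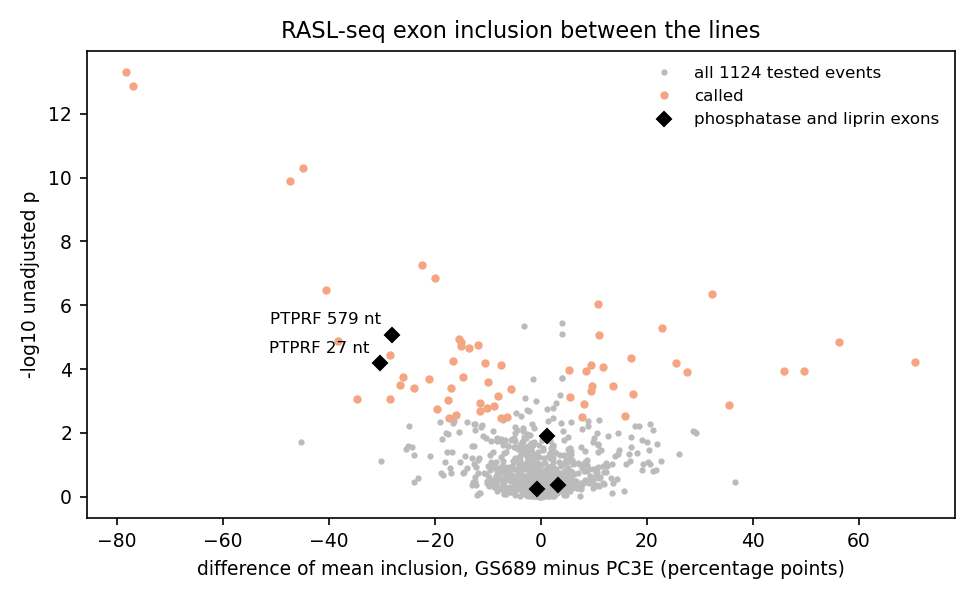
Difference of mean inclusion (GS689 minus PC3E, percentage points) against -log10 of the unadjusted p for all 1124 tested RASL-seq events, with the 64 called events and the phosphatase and liprin exons marked. The PTPRF exons lie at -30.3 and -28.1 points, and the 3 exons of PTPRM and PPFIBP1 within 4 points of 0.

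Summed over both splice forms of its events, a gene gives a total that is counted on a few junctions and can differ from its RNA level where these are alternative. By this measure PTPRF fell 2.13-fold in GS689, while PTPRM rose 2.25-fold, PTPRA 1.79-fold and PPFIBP1 1.39-fold, and PPFIA1 was not called. So 4 of 5 tested genes changed at an adjusted p under 0.05 in limma-voom, against 393 of 1317 (29.8%) over the whole table, 13.4% lower and 16.4% higher. The libraries of the lines did not overlap for these 4 genes, as for 46.4% of all totals. The median log2 change of the 5 was 0.48, and that of all 1317 totals was -0.00493. In bulk RNA fewer cells with a transcript and less of it per cell cannot be told apart.

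**Figure D4:**
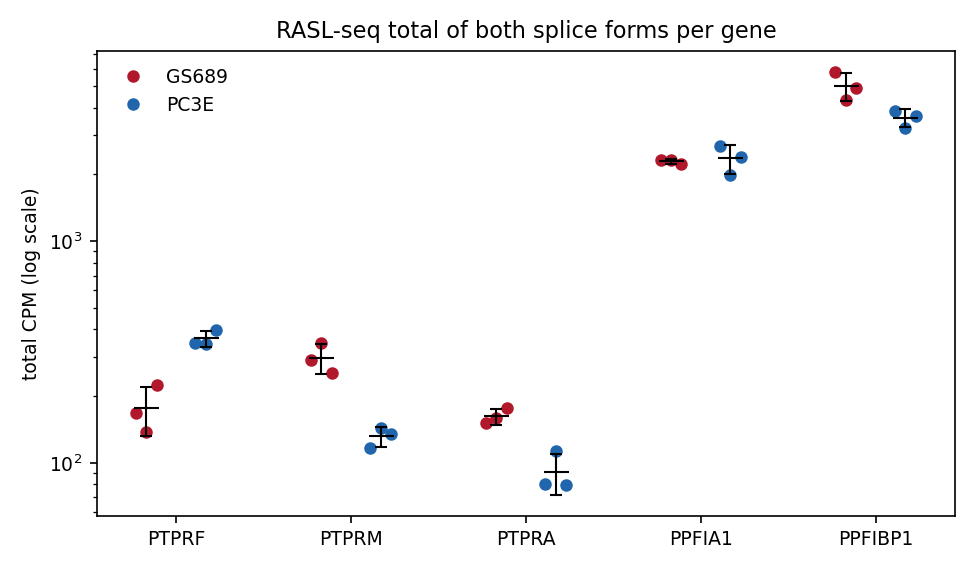
RASL-seq total of both splice forms, in CPM on a log scale, for the 5 genes with RASL-seq events, in each library of GS689 and PC3E, with the mean and SD of 3 libraries per line. PTPRF is lower in GS689 (176 against 364 CPM in PC3E), PTPRM and PTPRA are higher, and PPFIA1 overlaps.

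PTPRF totals were 167, 138 and 224 CPM in GS689 replicates 1 to 3, and 347, 345 and 399 CPM in PC3E replicates 1 to 3. The highest GS689 library was below the lowest PC3E library. The log2 change was -1.09 (SE 0.184, adjusted p = 0.00121, limma-voom), -0.85 from skipping counts alone and -1.80 from inclusion counts alone.

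PTPRM, which binds itself across cell contacts, moved the other way. Its totals were 292, 346 and 254 CPM in GS689, against 117, 144 and 135 CPM in PC3E, with no overlap (log2 change 1.17, SE 0.178, adjusted p = 0.000646, limma-voom). PTPRA, the SRC activator, had 151, 159 and 177 CPM in GS689, against 80.3, 113 and 79.6 CPM in PC3E (log2 change 0.84, SE 0.198, adjusted p = 0.00826, limma-voom). The PTPRA call was lost without PC3E replicate 3 (limma-voom adjusted p = 0.0527).

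Among the liprins, PPFIBP1 had 5805, 4341 and 4911 CPM in GS689, against 3881, 3234 and 3675 CPM in PC3E, again without overlap (log2 change 0.48, SE 0.135, adjusted p = 0.0219, limma-voom). Its call was lost under 4 alternatives: the limma-voom adjusted p was 0.110 without GS689 replicate 1, 0.0595 without GS689 replicate 3, 0.0691 without PC3E replicate 3 and 0.0583 with skipping counts alone. PPFIA1 had 2334, 2330.4 and 2225 CPM in GS689, and 2691, 1996 and 2405 CPM in PC3E. Its libraries overlapped, with a log2 change of -0.03 (SE 0.131, adjusted p = 0.883, limma-voom).

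Little else of the family was in the RASL-seq table. Of 17 other receptor phosphatases and alpha liprins, PTPRU and PPFIA3 had events, neither with a tested exon, and neither total passed the test: PTPRU had 70 counts in GS689 and 92 in PC3E, and PPFIA3 had 74 in GS689 and 84 in PC3E (adjusted p = 0.391 and 0.758, limma-voom). Of 38 partners and ligands, 8 had events. Of their 4 tested exons 0 were called, and of their 8 totals 1 was lower and 0 were higher; the median log2 change of the 8 was -0.09. The gene that passed was PHLDB2 (LL5 beta), a cortical platform protein that works beside liprins at adhesions. It fell 2.03-fold, to 655 ± 126 CPM in GS689, against 1327 ± 140.4 in PC3E (SD, n = 3; adjusted p = 0.000691, limma-voom).

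In RNA-seq, 128 of the 147 events had at least 20 counts in each of the 6 libraries. Of these, 90 had a median inclusion above 98%, 16 were below 2% and 22 lay between, and 19 of those 22, up to 6 per gene by count, are described here. These 22 events concern 20 exons, which were short: their median length was 49.5 nt, against 116 nt over the 16729 exons of the whole table within the same limits. At most 27 nt long were 4 of the 20, against 1.47% of all. The length was a multiple of 3 in 15 of the 20, against 43.1% of all. Over all 6 libraries the inclusion levels below are given as lowest, median and highest, corrected for the length of the junction windows.

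Among the LAR group, the PTPRF 27 nt exon ranged widely, with 3.60%, 19.7% and 44.9%. The PTPRF 579 nt exon was at 91.9%, 96.9% and 99.9%, and the lowest value is above the 66.7% to 75.4% that RASL-seq gave in the GS689 libraries. The PTPRF 33 nt exon stayed rare, at 0.324%, 1.64% and 2.18%. PTPRS (chromosome 19, minus strand) showed its widest range in the 12 nt exon at 5218798 to 5218809, which lies at codon 1308 of 1948: 39.3%, 75.9% and 80.3%. The 48 nt exon of PTPRS at 5216731 to 5216778, at codon 1350, was at 2.97%, 5.88% and 7.78%. The lengths of both PTPRS exons keep the reading frame.

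The phosphatases outside the LAR group mostly held to 1 form. In PTPRK (chromosome 6, minus strand) the single exon within the limits, of 39 nt, was included at 1.36%, 3.83% and 6.54%. In PTPRM a 27 nt exon was at 0%, 3.57% and 6.11%, a 51 nt exon at 2.92%, 4.11% and 7.59%, and a 188 nt exon at 96.5%, 97.9% and 100%. PTPRA included its 27 nt exon, which lies near the membrane-spanning part at codon 139 of 802, at 3.98%, 5.88% and 7.30%. Its 120 nt exon was at 91.2%, 92.2% and 93.2%, and its 136 nt exon at 93.2%, 95.3% and 97.8%. These events pass over the 167 nt exon between them, which was included at 99.1%, 99.5% and 99.8%, so they give no share of all PTPRA transcripts. Joined to the 167 nt exon, the 120 nt exon was at 99.9%, 100% and 100%, on 8909 counts against 5259. Among the noncoding exons of PTPRA, the 43 nt exon was at 72.1%, 78.7% and 84.3% in its event with the most counts. With other neighbouring exons the median of the 43 nt exon was 97.0%, 98.1% and 100% in the 3 further events with at least 20 counts in each library. The 79 nt exon had medians of 97.1%, 97.9% and 100% in 3 such events, which differ in the exon that follows.

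In PPFIA1, liprin alpha 1, a 117 nt exon (chromosome 11, 70196029 to 70196145) was at 20%, 33.9% and 40.8%. A 63 nt exon (70211479 to 70211541) was at 24.7%, 29.7% and 38.3%, on as few as 20 counts in a library. Its event held 187 counts in all, against 3697 for the 117 nt exon. The junction leaving the 63 nt exon in this event had 1 count in 1 library and 0 in the others. Its inclusion counts thus came almost wholly from the junction before it, and the level is not a share of all PPFIA1 transcripts. The PPFIA1 30 nt exon (70197100 to 70197129) follows the 117 nt exon. In its event with the 117 nt exon it was included at 4.95%, 11.9% and 26.9%. In its event with the exon before that, the values were 0.486%, 1.44% and 4.98%. Both events share the junction behind the 30 nt exon. The junction from the earlier exon straight to the 30 nt exon had at most 1 count in a library. Inclusion counts of the second event thus came almost wholly from the shared junction. Its level does not show how often the 30 nt exon is joined to the earlier exon. In PPFIBP1 the 30 nt exon (chromosome 12, 27827125 to 27827154) was mostly included, at 85.6%, 88.1% and 93.8%, and the second 33 nt exon was at 30.3%, 33.6% and 36.9%, within 4 points of its RASL-seq median of 36.7%. PPFIBP2, liprin beta 2, had 3 events that together held 2 to 68 counts in a library, and none reached 20 counts in every library.

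**Figure D5:**
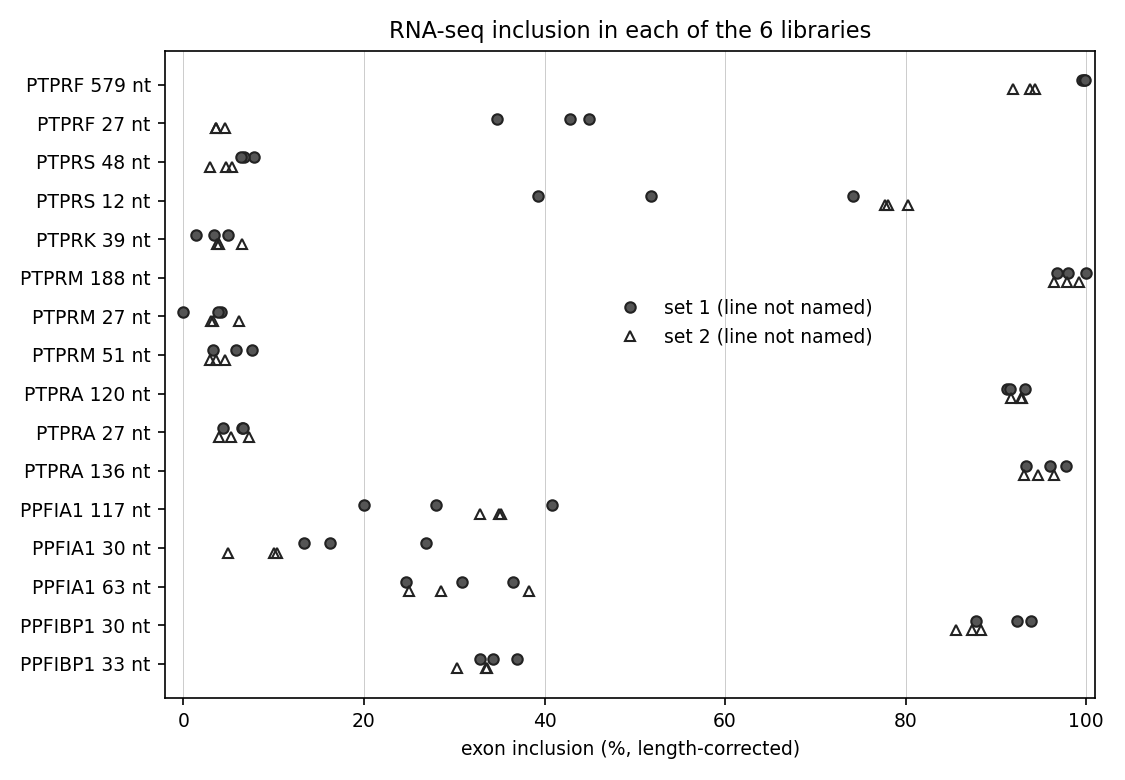
RNA-seq inclusion (%, corrected for length) of the described coding and partly coding exons of the phosphatases and liprins in each of the 6 libraries; circles and triangles are the sets of 3 libraries, whose lines the header does not name. Inclusion runs from 3.60% to 44.9% for the PTPRF 27 nt exon and from 39.3% to 80.3% for the PTPRS 12 nt exon, and stays within 7 points for the PPFIBP1 33 nt exon.

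All 12 RASL-seq events were also in the RNA-seq table. For 11 of them a median over the 6 libraries could be formed in both assays. The largest gap of these medians was that of the PTPRF 579 nt exon, at 87.1% in RASL-seq and 96.9% in RNA-seq. That RASL-seq median falls between the GS689 libraries (66.7% to 75.4%) and the PC3E libraries (98.7% to 100%). The GS689 libraries in RASL-seq all lay below the lowest RNA-seq library (91.9%). The PTPRA 27 nt exon, at 0% in RASL-seq on 72 counts in all, was at 5.88% in RNA-seq on 3803.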

How the data were processed

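The build was hg19, and the tools named were kallisto 0.43.0 and STAR 2.5.2a, with no role stated, per the submitters' processing notes. The authors deposited 1 table of counts per assay. Per the file headers, each RASL-seq cell holds a pair of counts for 1 library, and each RNA-seq cell the counts of 3 libraries of a set whose line is not named, with effective lengths for correction. In the RASL-seq pair the first count was read as inclusion: in 51 of 51 cases where the junction entering one event's exon is also the one that skips another's, the first count of the one equalled the second count of the other in all libraries. Empty cells were read as 0. Columns of per-sample values left unused numbered 0.

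Names came from GENCODE release 29 by structure (1934 of 2023 RASL-seq and 109246 of 114816 RNA-seq events matched 1 gene); no coordinate was converted. Inclusion was tested per event with a quasi-binomial model whose dispersions were moderated with limma 3.58.1 in R 4.3.3, after a minimum mean of 10 counts per library, 1 in each library and 10 of the rarer form. Gene totals were scaled by trimmed means of log ratios (CPM) and tested with limma-voom. P-values were adjusted by Benjamini-Hochberg over the whole table. Both tests were checked on simulated data. All 8 genes are named with all their RASL-seq events; RNA-seq exons are named by count and by a median inclusion of 2% to 98%, and other listed genes if they passed a test. Members and lists were chosen with earlier results of these data known.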

Additional observations from a re-analysis of the deposited data

How the results depend on the processing

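The PTPRF exons kept their direction under every alternative tried, and their calls under all but 1: the differences ran from -33.9 to -27.8 points for the 27 nt exon and from -30.3 to -25.9 for the 579 nt exon. With no minimum of the mean or of the rarer form, but still 1 count in each library, 4 events were called in place of 64. Both PTPRF exons then missed the threshold (adjusted p = 0.139 and 0.106, limma-moderated model). With at least 1 count of the rarer form, an alternative added after seeing the data, 83 events were called and both PTPRF exons passed. Limma on the log2 ratio at a pseudocount of 0.5 called 28 events and a minimum of 20 points left 25, the PTPRF exons among both. Leaving out 1 library gave 44 to 81 events and 251 to 441 totals; the lowest count of totals, 251 in place of 393, came without GS689 replicate 1. Skipping counts alone gave 242 totals. Totals of PTPRF and PTPRM kept their calls in every alternative that could be fitted; those lost for PTPRA and PPFIBP1 stand with their values. Values that were not called changed sign without PC3E replicate 3 (second PPFIBP1 33 nt exon, -0.203 points, range without 1 library -0.203 to 5.48) and without GS689 replicate 3 or PC3E replicate 1 (PPFIA1 total, 0.00402 and 0.055 on the log2 scale, range -0.169 to 0.055). The causes were not tested. The deviations of same-numbered replicates had r = 0.0371, 0.00378 and 0.034 for inclusion, and 0.269, 0.172 and -0.0137 for totals, where 2 of 3 pairs passed 0.1; since not every pair did, the numbers were not taken as pairs; with a replicate block 88 events and 465 totals were called, and no PTPRF, PTPRM, PTPRA, PPFIA1 or PPFIBP1 call changed. Without length correction all 19 RNA-seq levels were higher, by at most 16.7 points.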

Other observations

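The RNA-seq table gives its libraries in 2 sets of 3 whose lines are not named, so the values below are no comparison of GS689 with PC3E. The PTPRF 27 nt exon was included at 42.9%, 34.7% and 44.9% in set 1 and at 4.60%, 3.60% and 3.63% in set 2. The PTPRF 579 nt exon stood at 99.5%, 99.8% and 99.9% in set 1 and at 94.3%, 93.8% and 91.9% in set 2. For both exons the sets did not overlap, as was the case for 4303 of the 20337 events of the whole table with a median inclusion of 2% to 98% (21.2%).

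The PTPRS 12 nt exon was at 39.3%, 74.2% and 51.8% in set 1 and at 77.7%, 80.3% and 78.0% in set 2. Set 2 was even and set 1 was spread, with its second library near set 2. The PPFIA1 30 nt exon, joined to the 117 nt exon, was at 13.3%, 16.3% and 26.9% in set 1 and at 4.95%, 9.99% and 10.4% in set 2, again without overlap. The second 33 nt exon of PPFIBP1 overlapped, with 34.3%, 32.9% and 36.9% in set 1 and 30.3%, 33.6% and 33.6% in set 2.

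Summed over all events of a gene, per 1000000 of the table's total counts, PTPRF stood at 224, 197 and 243 in set 1 and at 130, 106 and 112 in set 2. PTPRM stood at 37.8, 54.8 and 50.3 in set 1 and at 123, 155 and 103 in set 2, and PTPRK at 41.2, 46.0 and 49.7 in set 1 and at 86.2, 85.3 and 60.4 in set 2. PTPRA stood at 112, 139 and 120 in set 1 and at 234, 284 and 208 in set 2, and PPFIBP1 at 68.4, 44.0 and 61.4 in set 1 and at 145, 99.2 and 88.5 in set 2. The sets of these 5 genes did not overlap, as for 48.3% of the 10813 genes with at least 20 counts in each library. PPFIA1 overlapped, at 99.3, 82.6 and 97.5 in set 1 and at 128, 121 and 98.4 in set 2. PTPRS overlapped too, at 90.6, 83.9 and 107 in set 1 and at 91.3, 102 and 70.8 in set 2. PPFIBP2 had 55, 68 and 59 counts in set 1 and 2, 5 and 3 counts in set 2. Since the same read may be counted under more than 1 event, the sums do not compare levels between genes.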
